A study of Mus musculus with 12 samples.

Results

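The cathepsins and cystatin C, genes of intracellular proteolysis, were followed on arrays of early tumor islets. They comprise the cathepsins Ctsa, Ctsb, Ctsc, Ctsd, Ctsh, Ctsk, Ctsl, Ctss and Ctsz, and Cst3, which encodes the cathepsin inhibitor cystatin C. They were taken by gene symbol and make up 10 of the 19938 genes that could be named on the array. Each of the 10 had exactly 1 transcript cluster, the group of probes that the array reads as a single transcript. All islets came from 8 week old RIP1-Tag2 mice on the C57BL/6 background, in which the rat insulin promoter (RIP1) drives the SV40 T antigen in beta cells, so both groups carry the oncogene. Islets had been freed with collagenase, sorted by their appearance and pooled. Total RNA of the pools was hybridized to 12 arrays, 6 of angiogenic islets and 6 of non angiogenic islets. The labels give neither the number of mice behind a pool nor whether pools had mice in common. They also do not say whether each array had its own pool. Every p-value below therefore measures the spread between arrays, which may be partly technical.

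Cathepsins are proteases of the lysosome that can also be secreted. Most are cysteine proteases of the papain family, whereas Ctsd encodes an aspartic protease and Ctsa a serine carboxypeptidase. They mature in the acid lumen that the vacuolar ATPase maintains, and cystatins and stefins hold the cysteine cathepsins in check outside the lysosome and in the cytosol. In tumors they are produced in large part by macrophages, and in RIP1-Tag2 mice they have been studied for their part in vessel growth and invasion.

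Levels are RMA values on the log2 scale, so a difference of 1 is a doubling. Because the brightness of a probe depends on its sequence, levels are compared between islet groups and not between genes. An adjusted p under 0.05 from limma (two-sided, over all 19938 genes) is called past the threshold. Of all genes, 708 (3.55%) were higher and 189 (0.948%) were lower in angiogenic islets. Of the 10 genes considered here, 4 were higher (Ctsb, Ctsc, Ctss and Ctsz) and 0 were lower. The difference was positive for all 10, as it was for 40.1% of all genes, and its median was 0.35 over the 10 genes and -0.02 over all genes. A tighter limit, which also asked for a ratio of at least 1.4, was met by Ctsc alone among the 10 and by 266 genes (1.33%) in all. In RNA of whole islets, a higher level can come from more cells of a type or from more RNA per cell, and these cannot be told apart.

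**Figure D1:**
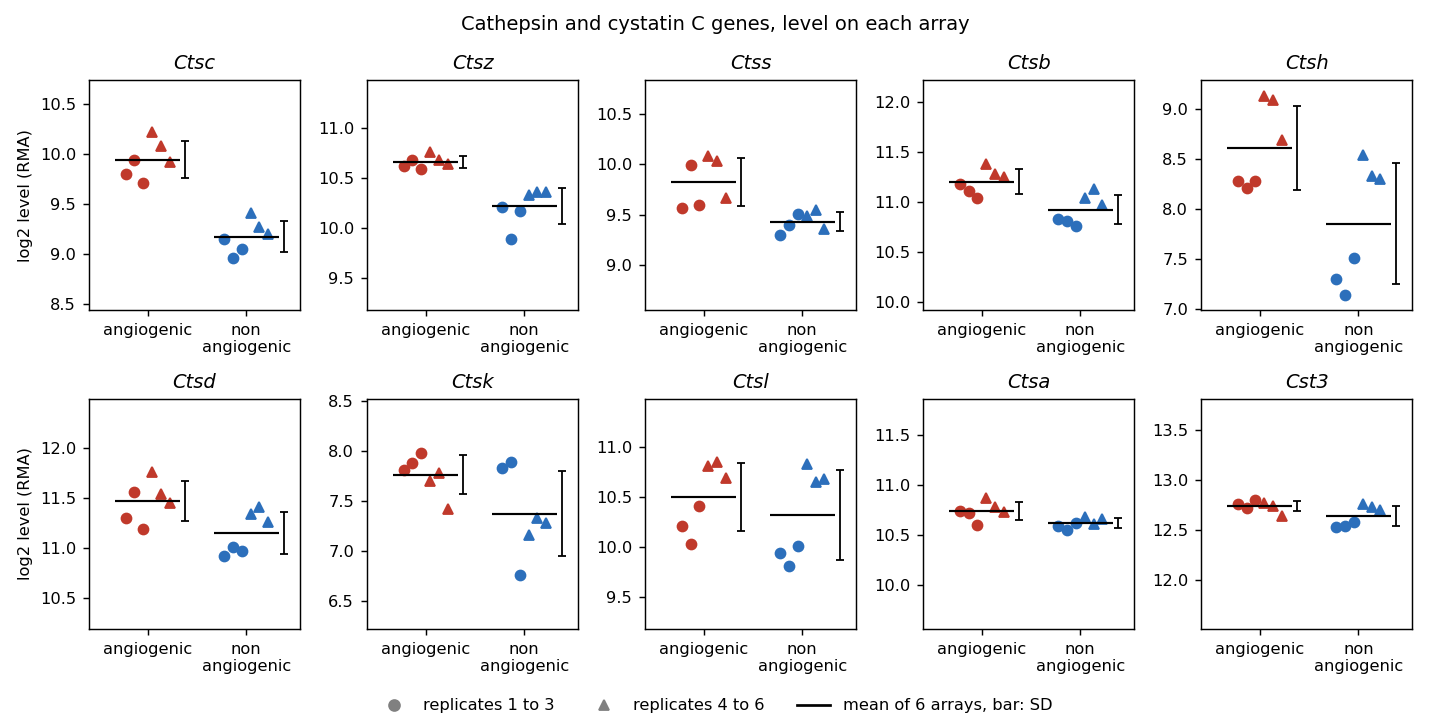
Log2 RMA level of the 10 genes on each array, 1 panel per gene, with angiogenic islets in red and non angiogenic islets in blue. Circles are replicates 1 to 3, triangles replicates 4 to 6, the line is the mean of 6 arrays and the bar the SD. The groups stand apart for Ctsc, Ctsz and, by a gap of 0.02, Ctss, while for Ctsh and Ctsl the arrays also part by replicate number.

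The arrays also differed between replicates 1 to 3 and replicates 4 to 6, each a set with 3 arrays of either group. A legend to the array data speaks of 2 independent profiling experiments, as many as there are sets. The labels assign no array to either experiment. Nor do they say whether the 3 arrays of a group within a set came from separate preparations. The sets are therefore named here by replicate number only, and the 6 arrays of a group may not be 6 independent pools. With the group in the model, limma called 3597 genes (18.0%) higher and 3752 (18.8%) lower in replicates 4 to 6 than in replicates 1 to 3. Ctsb, Ctsc, Ctsd, Ctsh, Ctsl and Ctsz were among the higher ones and none of the 10 among the lower ones. A fit that took the set as a block called 1172 genes (5.88%) higher in angiogenic islets, among them 6 of the 10, since Ctsd and Ctsh joined the other 4. Values within each set are given below where they matter.

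Ctsc and Ctsh both encode enzymes that remove residues from the amino terminus of proteins. Ctsc encodes dipeptidyl peptidase I, the activator of the granule serine proteases of neutrophils, mast cells and cytotoxic lymphocytes. Its level had a lowest, median and highest value of 9.71, 9.93 and 10.21 in angiogenic islets, against 8.96, 9.18 and 9.41 in non angiogenic islets. Every angiogenic array lay above every non angiogenic array, which 569 genes (2.85%) showed, Ctsc, Ctss and Ctsz among them. The mean was 9.94 ± 0.18 in angiogenic islets and 9.18 ± 0.16 in non angiogenic islets (SD, n = 6 each), a ratio of 1.70 (95% interval 1.49 to 1.95, limma adjusted p = 9.66e-05). The difference hardly moved with the set, at 0.76 ± 0.08 (SE) within replicates 1 to 3 and 0.78 ± 0.09 (SE) within replicates 4 to 6, and it stayed past the threshold whichever array was left out. The study selected Ctsc and Ctsh from these same arrays for its matrix signature, so their direction is no independent evidence.

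Ctsh encodes an aminopeptidase of the lysosome that also helps to mature surfactant protein B in the lung. Its level was 8.28, 8.20 and 8.28 in angiogenic replicates 1 to 3, against 7.30, 7.14 and 7.51 in non angiogenic replicates 1 to 3. It was 9.13, 9.08 and 8.68 in angiogenic replicates 4 to 6, against 8.53, 8.33 and 8.30 in non angiogenic replicates 4 to 6. The groups were apart within each set, but all 3 non angiogenic arrays of replicates 4 to 6 lay above all 3 angiogenic arrays of replicates 1 to 3. Over the 12 arrays the ratio was 1.69 with a wide interval of 1.16 to 2.46, and Ctsh missed the threshold (limma adjusted p = 0.134). Within replicates 1 to 3 the ratio was 1.92 (limma adjusted p = 6.37e-04), and within replicates 4 to 6 it was 1.49 (limma adjusted p = 0.0292). With the set as a block the standard error was 0.09 in place of 0.25 and the adjusted p 5.09e-05. In that fit with the block, replicates 4 to 6 exceeded replicates 1 to 3 by 0.89 ± 0.09 (SE), against 0.76 ± 0.09 (SE) between the groups.

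Ctsc, which had the lowest adjusted p of the 10, and Ctss, described further on, are the genes whose promoters held GAGGAAGT or its reverse complement ACTTCCTC, the core letters recognized by the myeloid transcription factor PU.1. The promoter windows (RefSeq, GRCm38.p6) run from 250 bases before to 50 bases after the transcription start and were found for 8 of the 10 genes, in 9 windows, with Ctsb and Ctsh unmatched. Of 32851 such windows of all genes, 3.2% held these letters. They are shown in capitals, 5′ to 3′ on the strand of the gene, with 20 bases on either side. The match starts at position -151 from the start site in Ctsc (chr7:88277914-88277961, plus strand) and at position -2 in Ctss (chr3:95526764-95526811, plus strand). A match describes the letters and says nothing about binding.
Ctsc: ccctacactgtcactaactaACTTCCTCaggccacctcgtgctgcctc
Ctss: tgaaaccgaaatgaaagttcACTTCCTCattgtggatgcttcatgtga

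Ctsz and Ctsb encode cysteine cathepsins that can cut from the carboxy terminus. Ctsz encodes a carboxypeptidase whose propeptide binds integrins. Its level was 10.59, 10.65 and 10.76 (lowest, median, highest) in angiogenic islets, against 9.89, 10.27 and 10.36 in non angiogenic islets. The angiogenic arrays lay close together above all others, with a mean of 10.66 ± 0.06 in angiogenic islets and 10.22 ± 0.18 in non angiogenic islets (SD, n = 6 each). The ratio was 1.36 (95% interval 1.22 to 1.51, limma adjusted p = 0.00201), and the call held whichever array was left out, with an adjusted p of at most 0.00661. Ctsz also passed within each set, with ratios of 1.45 in replicates 1 to 3 (limma adjusted p = 0.0120) and 1.27 in replicates 4 to 6 (limma adjusted p = 0.0143).

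Ctsb encodes a protease that acts both inside chains and as a carboxydipeptidase, and it has been much studied in tumors. Its level was 11.04, 11.21 and 11.38 (lowest, median, highest) in angiogenic islets, against 10.76, 10.90 and 11.13 in non angiogenic islets. The groups overlapped over 12 arrays, since non angiogenic replicates 4 and 5 lay above the lowest angiogenic array, but they were apart within each set. The mean was 11.20 ± 0.12 in angiogenic islets and 10.93 ± 0.14 in non angiogenic islets (SD, n = 6 each), a ratio of 1.21 (95% interval 1.09 to 1.35, limma adjusted p = 0.0457). This call was narrow. It was lost without angiogenic replicate 1, 2, 4, 5 or 6 and without non angiogenic replicate 1, 2, 3 or 6, with the limma adjusted p over the 12 omissions between 0.0223 and 0.110, whereas with the set as a block the adjusted p was 6.95e-04.

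Ctss, Ctsl and Ctsk encode endopeptidases, which cut within chains. Ctss encodes a protease of macrophages and dendritic cells that trims the invariant chain of MHC class II and keeps its activity at neutral pH. Its level was 9.57, 9.83 and 10.09 (lowest, median, highest) in angiogenic islets, against 9.30, 9.44 and 9.55 in non angiogenic islets. The groups did not overlap, but angiogenic replicates 1, 3 and 6 lay just above the non angiogenic arrays and replicates 2, 4 and 5 well above them. The mean was 9.82 ± 0.24 in angiogenic islets and 9.43 ± 0.10 in non angiogenic islets (SD, n = 6 each), a ratio of 1.31 (95% interval 1.14 to 1.51, limma adjusted p = 0.0281). The call was lost without angiogenic replicate 2, 4 or 5 and without non angiogenic replicate 1, 2 or 6, with the limma adjusted p between 0.0140 and 0.0716 over the 12 omissions. It also missed the threshold in each set alone, with 3 arrays per group (limma adjusted p = 0.206 in replicates 1 to 3 and 0.0505 in replicates 4 to 6), and passed with the set as a block (adjusted p = 0.00832).

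Ctsl encodes a broadly expressed endopeptidase that matures hormones and other proproteins. Its level was 10.20, 10.03 and 10.41 in angiogenic replicates 1 to 3, against 9.94, 9.81 and 10.01 in non angiogenic replicates 1 to 3. It was 10.81, 10.85 and 10.68 in angiogenic replicates 4 to 6, against 10.83, 10.65 and 10.68 in non angiogenic replicates 4 to 6. All 6 arrays of replicates 4 to 6 lay above all 6 arrays of replicates 1 to 3, by 0.68 ± 0.07 on average (SE), a ratio of 1.61 between the sets. Between islet groups the ratio was 1.13 (95% interval 0.847 to 1.51), which did not pass (limma adjusted p = 0.788, and 0.148 with the set as a block).

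Ctsk encodes the collagenase of osteoclasts, also made by activated fibroblasts. Its level was 7.80, 7.88 and 7.98 in angiogenic replicates 1 to 3, against 7.82, 7.88 and 6.76 in non angiogenic replicates 1 to 3. It was 7.70, 7.78 and 7.41 in angiogenic replicates 4 to 6, against 7.16, 7.33 and 7.28 in non angiogenic replicates 4 to 6. Non angiogenic replicates 1 and 2 were as high as the angiogenic arrays of their set, non angiogenic replicate 3 was the lowest of all, and only in replicates 4 to 6 were the groups apart. The ratio of 1.31 (95% interval 1.03 to 1.67) did not pass (limma adjusted p = 0.275, and 0.130 with the set as a block). In RefSeq, Ctss is the next protein-coding gene after Ctsk on chromosome 3, in order of start.

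Ctsd encodes the aspartic cathepsin, an abundant endopeptidase of lysosomes. Its level was 11.19, 11.49 and 11.76 (lowest, median, highest) in angiogenic islets, against 10.92, 11.13 and 11.40 in non angiogenic islets. The groups overlapped over the 12 arrays and were apart within each set. The ratio was 1.25 (95% interval 1.07 to 1.46) and missed the threshold without the block (limma adjusted p = 0.130), but passed with the set as a block (adjusted p = 0.00672). In neither set alone did it pass (limma adjusted p = 0.0696 in replicates 1 to 3 and 0.178 in replicates 4 to 6).

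Ctsa encodes protective protein, the serine carboxypeptidase that stabilizes beta-galactosidase and neuraminidase in the lysosome. Its level was 10.60, 10.73 and 10.87 (lowest, median, highest) in angiogenic islets, against 10.55, 10.62 and 10.68 in non angiogenic islets. The angiogenic arrays lay above all others, except that replicate 3 was within the non angiogenic range. The ratio was 1.09 (95% interval 1.01 to 1.17) and did not pass (limma adjusted p = 0.242, and 0.0968 with the set as a block).

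Cst3 encodes cystatin C, the secreted inhibitor of cysteine cathepsins, and had the narrowest range of the 10 genes, 0.27 over the 12 arrays. Its level was 12.76, 12.72 and 12.79 in angiogenic replicates 1 to 3, against 12.53, 12.54 and 12.58 in non angiogenic replicates 1 to 3. It was 12.76, 12.74 and 12.64 in angiogenic replicates 4 to 6, against 12.75, 12.72 and 12.70 in non angiogenic replicates 4 to 6. The angiogenic arrays were higher in the first set and intermingled with the others in the second. The angiogenic minus non angiogenic difference was 0.21 ± 0.06 (SE) in the first set and -0.01 ± 0.06 (SE) in the second, and over all arrays the ratio was 1.07 (95% interval 0.991 to 1.16, limma adjusted p = 0.431). A positive difference in both sets was found for 9 of the 10 genes, all but Cst3, and for 23.8% of all genes.

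**Figure D2:**
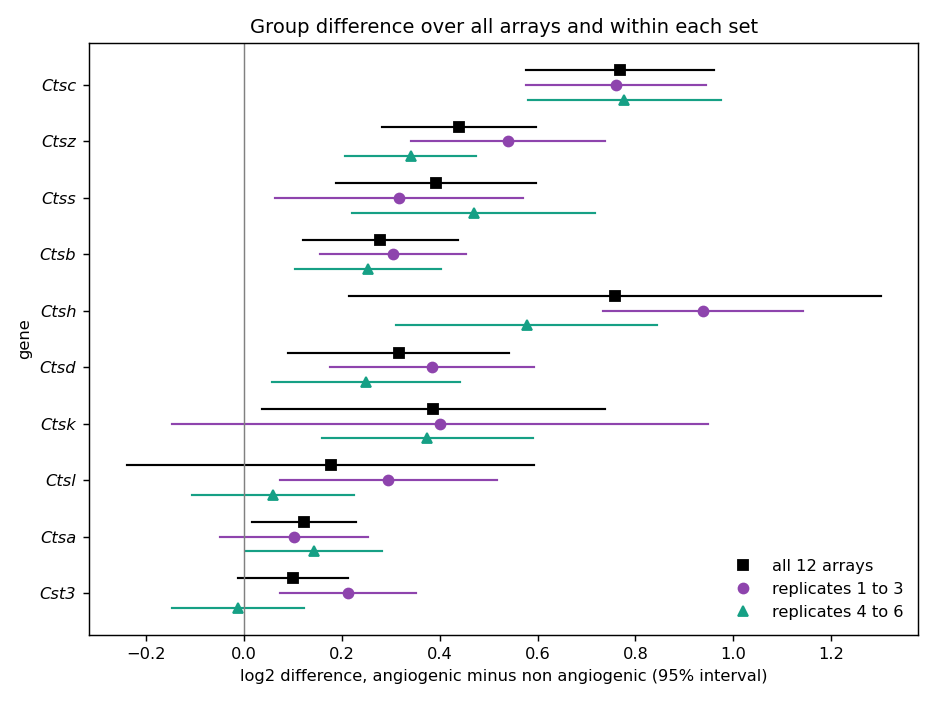
Log2 difference (angiogenic minus non angiogenic) of each gene with its 95% interval from limma, over all 12 arrays (black squares), in replicates 1 to 3 (purple circles) and in replicates 4 to 6 (green triangles). The interval of Ctsh over all arrays is much wider than within either set, and Cst3 lies at 0.21 in the first set and -0.01 in the second.

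Within the sets, 8 of the 10 genes were higher without overlap in replicates 1 to 3 (all but Ctsa and Ctsk, against 9.35% of all genes) and 8 in replicates 4 to 6 (all but Ctsl and Cst3, against 10.7%). Ctsb, Ctsc, Ctsd, Ctsh, Ctss and Ctsz were apart in both, as were 4.89% of all genes. At the threshold, limma called Ctsb, Ctsc, Ctsh and Ctsz in replicates 1 to 3 alone (2.37% of all genes were called higher) and Ctsc, Ctsh and Ctsz in replicates 4 to 6 alone (3.11%). Whether the group difference itself changed between the sets was tested by the interaction of group and set in limma. It was past the threshold for 1 gene in all (0.00502%) and for 0 of the 10, where 1278 genes and 2 of the 10 had an unadjusted p under 0.05. Those were Cst3 (difference of differences -0.22 ± 0.08, SE, limma adjusted p = 0.736) and Ctsh (-0.36 ± 0.16, SE, limma adjusted p = 0.777).

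Ctsa, Ctsd and Ctsl, none of which passed without a block, are the genes whose promoters held CACGTG, the letters read by the lysosomal regulator TFEB and its relatives and by other factors such as MYC. The word is its own reverse complement and occurred in 7.15% of the 32851 windows. It is the center of the longer palindrome of the CLEAR element of lysosomal genes, which occurred in 0.326% of windows and in 0 of the 9 windows of these genes. The matches start at positions -12 and 6 in Ctsa (chr2:164833741-164833803, plus strand), -98 in Ctsd (chr7:142387900-142387945, minus strand) and -236 in Ctsl (chr13:64370731-64370770, minus strand). They are printed with the 6 letters in capitals and 20 bases on either side as far as the window reaches, and Ctsd held a second match at position -245.
Ctsa: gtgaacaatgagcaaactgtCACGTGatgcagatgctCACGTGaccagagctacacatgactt
Ctsd: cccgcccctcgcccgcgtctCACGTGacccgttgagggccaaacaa
Ctsl: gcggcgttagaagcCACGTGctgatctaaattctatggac

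The 6 lists of genes that work with cathepsins were counted in the same fit, where 3.55% of all genes were higher and 0.948% lower. Of 14 other cathepsins and relatives measured, 3 were higher and 0 lower. These were Lgmn, the asparaginyl endopeptidase that processes several cathepsins, at 1.36-fold (limma adjusted p = 0.00328), Tinagl1, a cathepsin-like matrix protein without protease activity, at 1.23-fold (limma adjusted p = 0.00795), and Ctsw, a cathepsin of cytotoxic lymphocytes, at 1.18-fold (limma adjusted p = 0.00789). The next largest difference, for Cts7, was -0.12 ± 0.05 (SE) and did not pass (limma adjusted p = 0.274). The median of the list was -0.03, against 0.35 for the 10 genes and -0.02 for all genes. Many genes of the list had low levels, and the list averaged 6.36 in angiogenic and 6.32 in non angiogenic islets. Because RMA compresses such weak signals, a median near that of all genes may reflect low signal. The 10 genes and the list were also chosen with earlier results of these data known. The contrast of their medians therefore cannot show that the 10 genes behave differently from other cathepsins.

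Of 16 other cystatins and stefins, 0 were higher and 0 lower by limma, 0 had an unadjusted p under 0.05, and the median difference was 0.01. The largest difference was that of Ahsg, a fetuin, at 0.20 ± 0.16 (SE, limma adjusted p = 0.684). Among the inhibitors, therefore, neither Cst3 nor any other gene passed. Most of the other cystatins had low levels, and the list averaged 5.64 in angiogenic and 5.62 in non angiogenic islets. RMA compresses such weak signals, so differences may be missed.

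Of 31 other lysosomal hydrolases and their activators, 4 were higher and 0 lower, with a median of 0.04. They were Lipa, the acid lipase, at 1.60-fold (limma adjusted p = 5.70e-05), Prcp, prolylcarboxypeptidase, at 1.52-fold (limma adjusted p = 0.00405), Acp5, the tartrate-resistant phosphatase of osteoclasts and macrophages, at 1.37-fold (limma adjusted p = 0.0132), and Man2b1, an alpha-mannosidase, at 1.23-fold (limma adjusted p = 0.0176). Of 27 lysosomal membrane and sorting genes only Laptm5, a lysosomal protein of hematopoietic cells that is also on the macrophage list used below, was higher, at 1.44-fold (limma adjusted p = 0.00254), and the median was -0.02. The next largest difference there, for the tetraspanin Cd63, was -0.18 ± 0.07 (SE, limma adjusted p = 0.188). Of 20 subunits of the vacuolar ATPase only Tcirg1, the subunit known from osteoclasts, was higher, at 1.23-fold (limma adjusted p = 0.00189), with a median of -0.02, and the next largest was Atp6v1e1 at -0.13 ± 0.06 (SE, limma adjusted p = 0.413).

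Of 18 substrates and partners of cathepsins, 4 were higher and 0 lower, with a median of 0.06. All 4 encode matrix proteins that the study also chose from these arrays, which is why their direction is no independent evidence. Col1a1 and Col1a2, the chains of type I collagen, were 2.95-fold and 2.77-fold higher (limma adjusted p = 1.45e-07 and 2.70e-08). Eln, elastin, was 1.58-fold higher (limma adjusted p = 5.54e-04), and Col18a1, whose product cathepsin L can cut to endostatin, was higher by 0.49 ± 0.10 on the log2 scale (SE, limma adjusted p = 0.0130). None of the granule proteases on the list that dipeptidyl peptidase I activates passed, namely Elane, Prtn3, Gzma, Gzmb, Cma1 and Tpsab1. Their differences lay between -0.15 and 0.16. Their mean levels over all arrays were low, from 5.09 for Gzma to 6.38 for Prtn3. RMA compresses such weak signals, so a difference in these proteases may be missed.

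**Figure D3:**
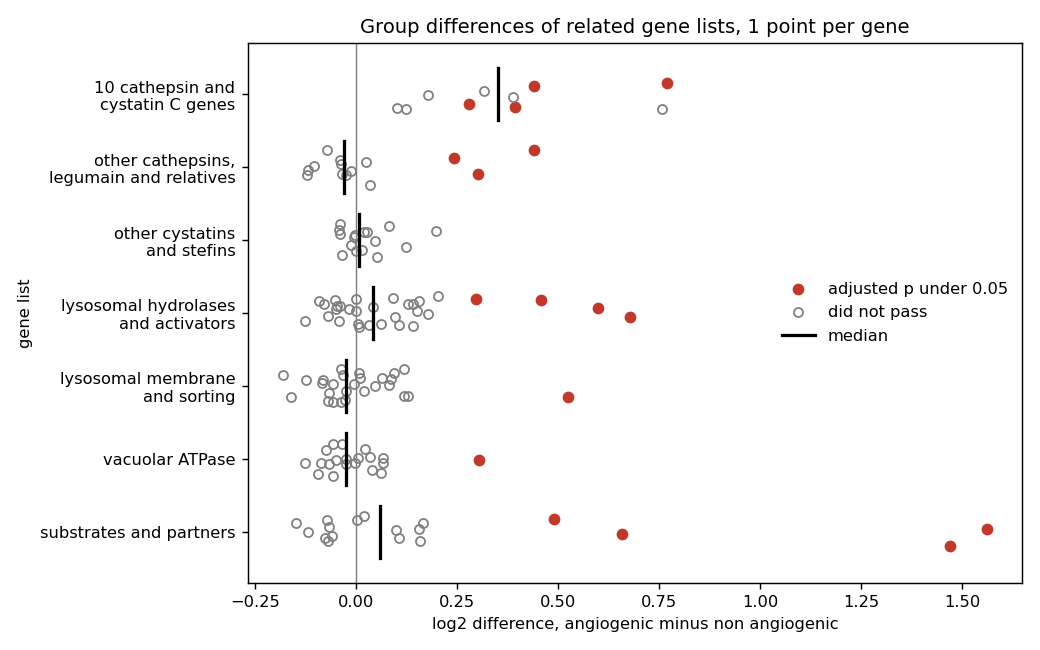
Log2 difference (angiogenic minus non angiogenic) of every measured gene of 7 lists, 1 point per gene, with filled red points at a limma adjusted p under 0.05 and open points otherwise. The black line is the median of a list, 0.35 for the 10 cathepsin and cystatin C genes and between -0.03 and 0.06 for the others. Many genes of the lists of other cathepsins and other cystatins had low levels, where RMA compresses differences.

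Markers of several stromal cell types moved with the groups as well. Of 20 macrophage and monocyte markers, 14 were higher and 0 lower in angiogenic islets (limma, 17 higher with the set as a block), and the mean of the list per array lay between 8.50 and 8.88 in angiogenic islets, against 8.11 to 8.38 in non angiogenic islets. Its 3 brightest genes were Lyz2, C1qb and Laptm5, with ratios of 1.60 (limma adjusted p = 0.182, and 1.02e-04 with the set as a block), 1.42 (limma adjusted p = 0.00224) and 1.44. Adgre1, encoding F4/80, passed (8.53 ± 0.24 in angiogenic islets and 7.88 ± 0.17 in non angiogenic islets, SD, n = 6 each, limma adjusted p = 0.00174), as did Csf1r and Cd68. The 6 macrophage markers that did not pass were Lyz2, C1qa (limma adjusted p = 0.286), Fcgr1 (0.0628), Itgam (0.388), Aif1 (0.414) and Cd163, whose difference was -0.03 ± 0.08 (SE, 0.921). Fibroblast markers were higher for 11 of 12 genes (12 with the set as a block), with a mean per array of 9.02 to 9.32 in angiogenic islets, against 7.88 to 8.29 in non angiogenic islets. Postn and Col1a1, among the brightest of that list, were 3.07-fold and 2.95-fold higher, while Dcn, the other, had a ratio of 1.66 (limma adjusted p = 0.0882, and 7.37e-04 with the set as a block). Endothelial markers were higher for 12 of 15 genes (15 with the set as a block), including the 3 brightest, Emcn, Cdh5 and Cd93. The study also picked markers of these cells from the same arrays, Adgre1 and Cdh5 among them. Neutrophil markers were higher for 0 and lower for 0 of 10 genes by limma (2 at an unadjusted p under 0.05), with a mean per array of 5.63 to 5.81 in angiogenic islets, against 5.61 to 5.82 in non angiogenic islets, and 0 of 13 lymphocyte and mast cell markers passed (2 at an unadjusted p under 0.05, and 1 lower with the set as a block). RMA gives every gene a value above 0, so the absence of a marker could not be read from these levels. The part of these cells in the levels of the cathepsins was not tested.

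Acinar markers, which come from exocrine tissue, differed widely between arrays. Their mean per array was 10.02 ± 1.16 in angiogenic islets and 9.66 ± 1.42 in non angiogenic islets (SD, n = 6 each), and 0 of 11 genes passed in limma, or at an unadjusted p under 0.05. Ctrb1, Cpa1 and Ctrl were the brightest. Non angiogenic replicate 3, the array with the lowest Ctsk, was also the lowest of all in acinar markers. Other arrays did not show this pairing. Angiogenic replicate 2 was almost as low in acinar markers (mean 7.75) but not in Ctsk (7.88). Non angiogenic replicate 4 was the highest in acinar markers, and its Ctsk level of 7.16 was the lowest but for non angiogenic replicate 3. The part of exocrine tissue in the Ctsk levels was not tested.

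The genes with the most similar profiles were found for the 7 members that passed or that spanned at least 1 over the 12 arrays. Profiles were centred on their own mean, and the distance is the mean absolute difference over the 12 arrays on the log2 scale. Genes so chosen tend to share the group and set differences of the member by selection. Their own differences and adjusted p-values are therefore no independent evidence. For Ctsc these were Tfec, a transcription factor of macrophages (distance 0.073), Anxa2, encoding annexin A2 (0.075), and Nes, encoding nestin (0.077), where Ctsc itself deviated from its mean by 0.384 on average. All 3 were higher in angiogenic islets, at 1.60-fold, 1.72-fold and 1.60-fold (limma adjusted p = 4.66e-04, 1.50e-04 and 0.00175), and Anxa2 is another gene that the study chose from these arrays. For Ctsh they were Ms4a6d, a membrane protein of macrophages (0.123), Dcn, encoding the proteoglycan decorin (0.130), and Lyz2, encoding lysozyme (0.134). Between the sets these 3 differed by 0.91, 0.71 and 0.88, against 0.89 for Ctsh, and none of them passed without a block. For Ctsl they were the proteasome subunit Psmd2 (0.040), the SUMO-activating subunit Sae1 (0.048) and the mitochondrial dehydrogenase subunit Idh3a (0.053), which differed between the sets by 0.63, 0.71 and 0.63 and between the groups by 0.19 at most.

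**Figure D4:**
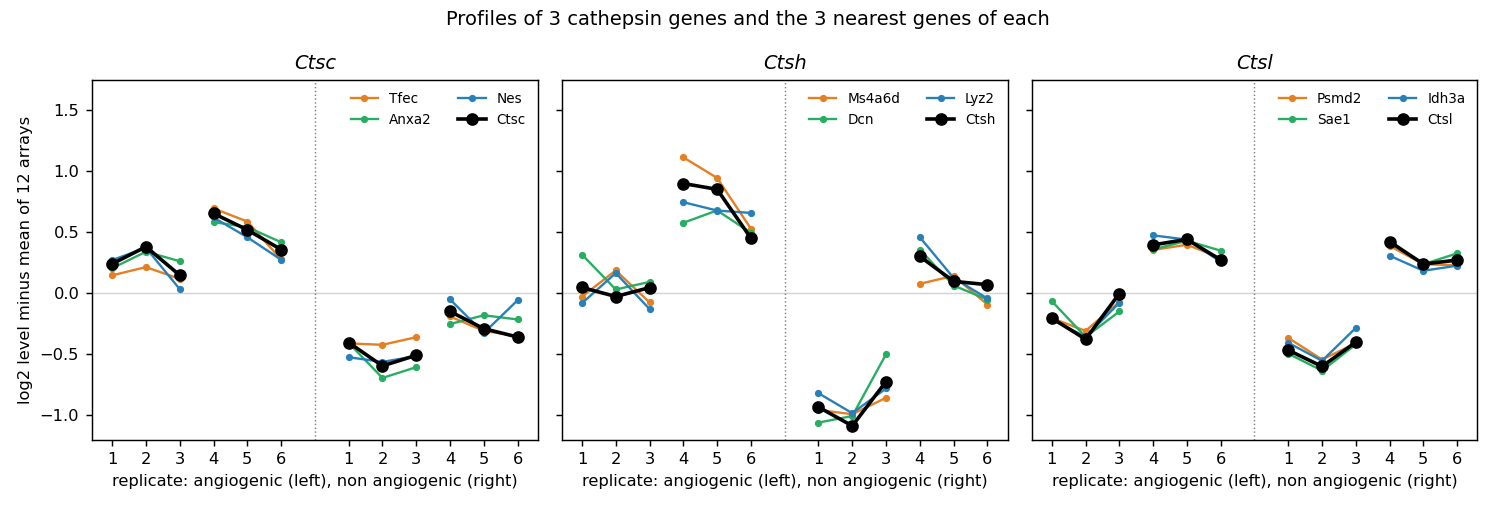
Log2 level minus the mean of the 12 arrays for Ctsc, Ctsh and Ctsl (black) and the 3 nearest genes of each (colors), with the 6 angiogenic arrays on the left and the 6 non angiogenic arrays on the right of each panel. Ctsc and its neighbours lie above 0 on all angiogenic and below 0 on all non angiogenic arrays, while Ctsl and its neighbours part by replicates 1 to 3 and 4 to 6. The neighbours were chosen for this likeness.

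For Ctsz the nearest genes were Igfbp7 (0.060), Dlc1 (0.065) and Plk2 (0.066), all of which were higher in angiogenic islets (limma adjusted p between 4.76e-04 and 9.60e-04). For Ctss they were Clec11a (0.080), the endosomal receptor Tlr8 (0.085) and Vsir (0.086), of which Vsir passed at 1.26-fold (limma adjusted p = 0.0179). These distances are large beside the mean deviation of Ctss itself, 0.213. For Ctsb they were Serping1, encoding the C1 inhibitor (0.046), Hsd11b1 (0.048) and the cytokine Il33 (0.050), of which Serping1 passed at 1.21-fold (limma adjusted p = 0.0261). For Ctsk they were Nlrp3 (0.131), Ccn1 (0.143) and Vcl (0.149), at distances that are large beside the mean deviation of Ctsk itself, 0.315.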

How the data were processed

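The authors deposited log2 levels per transcript cluster, made, per the submitters' processing notes, with RMA in Affymetrix Expression Console; the sources used here name no versions and no genome build. RMA brings arrays to a common distribution (medians 7.30 to 7.38), which hides a global shift in RNA content and compresses weak signals. Groups and replicate numbers came from the labels. Of 35556 clusters, 21789 had 1 symbol in the platform annotation, 1621 several and 12146 none, and the brightest cluster was kept for 999 genes with several, leaving 19938 genes. The RefSeq table (GRCm38.p6) changed 0 symbols. Groups were compared with R 4.3.3 and limma 3.58.1 (lmFit, eBayes, no covariate, two-sided, Benjamini-Hochberg, threshold 0.05), tested on simulated data. The number of arrays and their split into sets limit the precision. Genes named are the 10 members, in each related list the 4 largest differences that passed or, with fewer, those and the largest that did not, the 3 brightest of a marker list set beside a member, and the 3 nearest profiles. Other macrophage, endocrine, beta cell and duct markers and the granule proteases were named after their values were seen. Members and lists, 6 of related genes and 11 of cell type markers, were chosen with earlier results of these data known. Alternatives were a t-test per gene, limma with array weights or an intensity trend, quantile normalization, median centring, omission of the dimmest 25% of genes, the mean of all clusters, replicate or set as a block, each set alone and each array left out. The comparison of the sets themselves was added after the data were seen.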

Additional observations from a re-analysis of the deposited data

Results flagged for a closer look

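Of 42 groups of 6 values (each gene and each marker list in each islet group), 2 held an array that stood far from the other 5 by Dixon's test, where chance flags about 1 in 20 groups. Neither was a cathepsin or Cst3. The mean of the acinar markers was 7.75 in angiogenic replicate 2, where the nearest other angiogenic array had 9.96. The mean of the lymphocyte and mast cell markers was 6.55 in non angiogenic replicate 4, where the nearest other non angiogenic array had 6.20.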

How the results depend on the processing

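Ctsc and Ctsz passed under all 24 alternatives, and Ctsk, Ctsl and Cst3 under none. The difference of Cst3 turned to -0.0116 in replicates 4 to 6 alone. Of the 10 genes, 2 passed by an adjusted t-test (Ctsc and Ctsz), 7 by an unadjusted one, 6 with the replicate or the set as a block, and 2 to 4 with an array left out. Ctsb was also lost with median centring (limma adjusted p = 0.0533). Over all genes, 897 passed, and 689 to 891 with an array left out, 2914 by the unadjusted t-test, 1719 with the set as a block and 539 in replicates 1 to 3 alone. The replicate number as a block called 1507 genes and added Ctsd and Ctsh. Same-numbered arrays of the groups deviated together with correlations from 0.03 for replicate 3 to 0.54 for replicate 4. Not every array correlated best with its own number. These correlations include the difference between the sets, so they cannot tell whether same-numbered pools were paired. The numbers were not taken to pair the pools. By the unadjusted t-test 7 substrates and partners (6 higher, 1 lower), 6 lysosomal membrane genes (3 higher, 3 lower) and 5 other cathepsins (3 higher, 2 lower) passed. The lysosomal membrane count was 2 by the adjusted t-test, with array weights, with median centring and with the set as a block. Each time 1 gene was higher and 1 lower. With an array left out the count was 1 to 2, of which 1 was higher. In replicates 1 to 3 alone, 1 other cathepsin and 0 vacuolar ATPase genes passed. The cause of these changes was not tested. Differences as small as those of Ctsa and Cst3 did not pass in limma with 6 arrays per group.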

Other observations

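Sst, Pyy and Gcg, hormone genes of endocrine cells other than beta cells, were lower in angiogenic islets. Sst, encoding somatostatin, averaged 11.81 in angiogenic islets and 12.55 in non angiogenic islets, a difference of -0.74 ± 0.08 (SE, limma adjusted p = 8.27e-05). Pyy, encoding peptide YY, differed by -0.56 ± 0.10 (SE, limma adjusted p = 0.00408) and Gcg, encoding glucagon, by -0.26 ± 0.06 (SE, limma adjusted p = 0.0153). Of 8 markers of these cells, 3 were lower and 0 higher, with a mean per array of 10.49 to 10.74 in angiogenic islets, against 10.86 to 10.97 in non angiogenic islets. The arrays of the groups did not overlap in this mean. Of 11 beta cell markers, Ucn3, encoding urocortin 3, was lower (limma adjusted p = 0.0285), and with the set as a block 3 were lower (Ucn3, Nkx6-1 and Slc2a2, limma adjusted p = 0.00371, 0.0179 and 0.0407). The beta cell list had a mean per array of 11.73 to 11.86 in angiogenic islets, against 11.74 to 11.97 in non angiogenic islets, and of 8 duct markers Tspan8 was lower (limma adjusted p = 0.0398). Of 11 pericyte and smooth muscle markers 10 were higher, with a mean per array of 8.40 to 8.74 in angiogenic islets, against 7.76 to 7.91 in non angiogenic islets. Of 9 dendritic cell markers 1 was higher.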
